A study of Saccharomyces cerevisiae W303 with 28 samples.

Results

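Chromatin immunoprecipitation with an antibody against the HA epitope was compared between budding yeast that carried HA-tagged Scc1 and yeast that carried no tag, to measure where the antibody recovers DNA without its target and how much of the Scc1 pattern such signal could hold. The comparison rests on 6 of the 28 libraries of the series: 4 from HA-tagged cells (2 immunoprecipitates, IP, and their 2 whole-cell extracts) and 2 from untagged cells (1 IP and its extract). They were chosen by their labels alone. HA-tagged cells were wild-type Scc1-6HA cells of strain APY875, replicates 1 and 2. Untagged cells were wild-type cells of strain APY295, whose title names no tag and which the series design calls the untagged control. Both strains are of the W303 background, both were collected 4 hours after a double-strand break had been induced with galactose, both were held in nocodazole, and both were precipitated with anti-HA 12CA5. Each group is a single strain. Nothing in the labels says that the replicates came from separate cultures, so the p-values below rest on differences among libraries that may be no more than technical. For the limma tests, which were fitted on 10 anti-HA IPs, those differences came from 4 replicated HA-tagged groups with break and nocodazole. These were wild type, rad17, pds5-AID and rad17 pds5-AID. The fits also held 1 HA-tagged wild-type IP without a break.

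Scc1 is the kleisin of cohesin, the subunit that bridges the heads of its Smc pair, in a ring-shaped complex that holds sister chromatids together and extrudes loops of DNA. In yeast held in mitosis with nocodazole, cohesin is known to gather around centromeres, of which each yeast chromosome has 1, at sites along the arms, and around a double-strand break. A strain without the epitope shows what the antibody, the beads and the open or highly transcribed parts of the genome give on their own. No gene, centromere or sequence was placed on the windows, since the files name no genome build, the labels give none, and the gene table at hand belongs to another build; coordinates are those of the deposited 1 kb windows.

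The untagged library was the shallowest of the 3 IPs. With the smallest value above 0 taken as a coverage of 1, the median window had a coverage of 82.0 and 65.5 in the HA-tagged IPs. In the untagged IP it was 36.7. These values are depths on the scale of the extract coverage and not counts of reads in a window. The extracts had a median coverage of 77.2 and 61.7 in HA-tagged cells and 58.1 in untagged cells. The extract of HA-tagged replicate 2 stood apart in its evenness: the SD of its log2 coverage was 0.495, against 0.247 in HA-tagged replicate 1 and 0.247 in untagged cells. Values over extract in replicate 2 therefore carry an uneven divisor, and IP alone is given beside them where it matters. Of 12447 windows, 11641 passed limits on their extract (a mean over the 10 anti-HA libraries of 0.25 to 4 times the median, and above 0 in each) and were kept. The labels were checked on the break itself: within 5 kb to its right the extract fell to 0.24 and 0.21 of its own library's median in HA-tagged cells and to 0.23 in untagged cells, so DNA loss at the cut was present in all 3 extracts.

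HA-tagged cells gave about 8 times the calibrated signal of untagged cells in the median window. The deposited IP signal is calibrated with added Candida glabrata cells, so levels can be set side by side between libraries. Over extract, the median window had 15.6 and 17.9 units in HA-tagged cells and 1.99 units in untagged cells. On the log2 scale the library level was 4.06 ± 0.14 in HA-tagged cells (SD, n = 2) and 0.99 in untagged cells (n = 1), a difference of 3.07 or 8.37-fold. Against each HA-tagged replicate alone the fold was 7.81 and 8.97, and with IP alone it was 8.04. The 2 tagged libraries both lay above the untagged one. A two-sided exact permutation test of 2 libraries against 1 gave p = 0.333, the smallest value that this design allows.

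The untagged signal was nearly flat where the HA-tagged signal was not. Between the 5th and the 95th percentile of windows the HA-tagged signal over extract spanned 5.56 to 96.3 units in replicate 1 and 5.39 to 135 units in replicate 2, whereas the untagged signal spanned 1.33 to 2.94 units. These are ratios of 17.3 and 25.05 in HA-tagged cells and 2.21 in untagged cells. With IP alone the ratios were 16.5 and 17.3 in HA-tagged cells and 2.11 in untagged cells. At 2-fold or more of the library's own median lay 2911 and 3161 windows in HA-tagged cells and 116 windows, 0.996% of those kept, in untagged cells. At 4-fold or more lay 1261 and 1497 windows in HA-tagged cells and 21 windows, 0.18%, in untagged cells. The untagged distribution was a single narrow peak, and the HA-tagged distributions had a long tail on the high side.

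**Figure D1:**
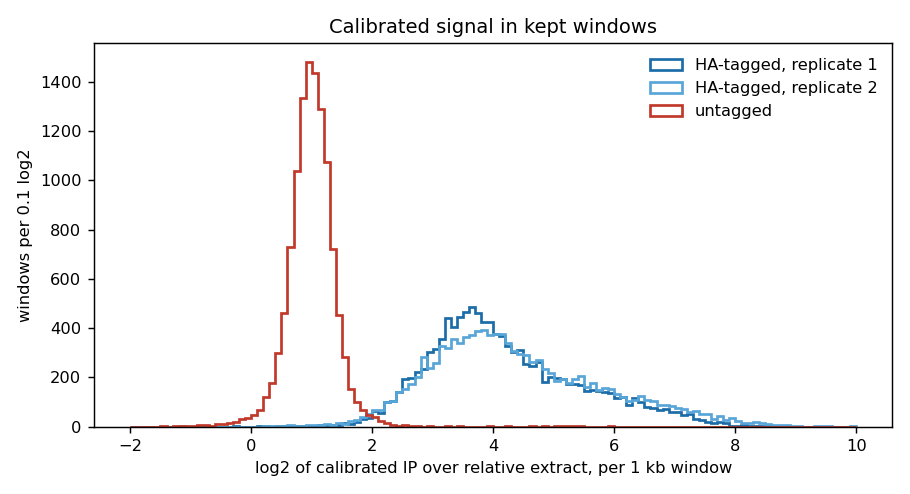
Number of kept 1 kb windows (vertical axis, per 0.1 log2) against the log2 of calibrated IP over relative extract (horizontal axis) for the HA-tagged replicates and the untagged library. The untagged library forms a narrow peak around its median of 0.99, and the HA-tagged replicates form broad peaks around 3.96 and 4.16 with long tails to the right.

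Window by window, nearly every position had more signal with the tag than without it. Of the 11641 windows, 11635 (99.9%) were higher in HA-tagged than in untagged cells on the calibrated scale (limma on 10 anti-HA libraries, Benjamini-Hochberg adjusted p below 0.05), and 0 (0%) were lower, at an unadjusted p under 0.05 as well. Without HA-tagged replicate 1 the number of higher windows was 11614, and without replicate 2 it was 11622. The untagged group has 1 library, so this fit assumes that it varies like the replicated groups, which include the mutants. Every window carries the same shift in library level, so the windows, and the regions below, are not separate evidence of that shift. The fit added 5% of each library's own median before log2, which pulls low windows toward the shift. The count of higher windows and the lack of lower ones can depend in part on this step. The 6 windows that did not pass lay in 3 places, and they were singled out after their values were seen. The first was chr12:619001-622000 (3 windows). In its middle window, chr12:620001-621000, HA-tagged cells had 9.62 and 6.998 units and untagged cells 6.31 units (log2 difference 0.47 ± 0.39 SE, limma adjusted p = 0.231). The second was chr14:414001-416000 (2 windows), where the right window had 8.96 and 7.06 units in HA-tagged cells and 5.95 units in untagged cells (log2 difference 0.52 ± 0.39 SE, limma adjusted p = 0.183). The third was chr2:272001-273000, with 8.72 and 8.56 units in HA-tagged cells and 5.70 units in untagged cells (log2 difference 0.70 ± 0.39 SE, limma adjusted p = 0.0715). In all 6 windows both HA-tagged values were above the untagged value. This did not hold in chr14:521001-522000, which the fit placed among the higher windows at a log2 difference of 0.97. Its values were 1.16 and 1.75 units in HA-tagged cells and 1.42 units in untagged cells, so replicate 1 was below the untagged library.

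Set against the HA-tagged mean of the same window, the untagged signal came to 11.8% in the median window. It was 12.8% of replicate 1, 11.04% of replicate 2 and 12.2% of their mean with IP alone. The share ran from 1.97% at the 5th percentile to 32.2% at the 95th. It was under 5% in 2455 windows (21.1%), at least 25% in 1408 windows (12.1%), at least 50% in 54 windows and at least 100% in 0 windows. Against replicate 1 alone 1 window was at 100% or more (122%), and against replicate 2 alone 0 were. With IP alone 1 window was at 100% or more of the HA-tagged mean (169%). Summed over all kept windows, untagged signal equalled 6.48% of HA-tagged signal, with 7.49% of replicate 1 and 5.70% of replicate 2. The summed share, which weighs windows by their HA-tagged signal, was thus lower than the share of the median window.

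Windows were then ordered by a library that is no part of the comparison. They were placed in 10 equal groups by the signal of Scc1 carrying another epitope, Pk, in wild-type cells with break and nocodazole. From the lowest to the highest Pk group, the median HA-tagged signal went through 5.72, 13.9 (the fifth group) and 96.3 units in replicate 1 and 5.61, 15.6 and 131 units in replicate 2, while the untagged signal went through 1.59, 2.00 and 2.32 units. The highest group stood 16.8- and 23.3-fold above the lowest in HA-tagged cells and 1.46-fold above it in untagged cells. The untagged share fell in each step, from 28.4% of the HA-tagged mean in the lowest Pk group to 2.00% in the highest. Untagged signal was thus a larger part of the HA-tagged signal where Pk-tagged Scc1 was sparse, and a small part where it was dense.

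**Figure D2:**
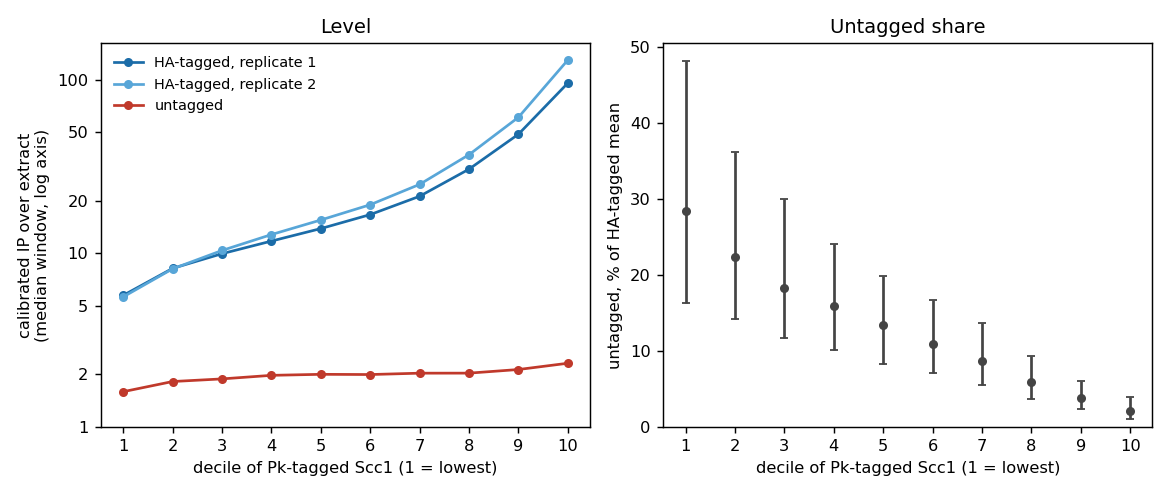
Left, median calibrated IP over extract (log axis) of the HA-tagged replicates and the untagged library in 10 groups of windows ordered by Pk-tagged Scc1; right, untagged signal as a percent of the HA-tagged mean (points, median window; bars, 5th to 95th percentile of windows). The HA-tagged signal climbs with the Pk group, the untagged signal stays between 1.59 and 2.32 units, and the share falls to 2.00%.

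Across single windows the patterns were weakly alike. Over the 11641 windows the log2 untagged signal correlated with log2 HA-tagged signal at Pearson's r = 0.396 (replicate 1) and 0.392 (replicate 2), which equals 15.7% and 15.3% of the variance. Spearman's rho was 0.377 and 0.373. These values describe windows, which are not independent, and the untagged library shares the genome, the chromatin and the antibody with the HA-tagged ones, but not an extract. The 2 HA-tagged replicates correlated with each other at r = 0.950. Neighbouring windows correlated at r = 0.651 and 0.629 in HA-tagged cells and at 0.305 in untagged cells. The untagged signal, with lower coverage, was thus less smooth along the chromosome. The part of depth in that difference was not tested. The untagged IP and its own extract correlated at r = 0.326 on the log2 scale and at Spearman's rho = 0.0230.

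The untagged library had a sharp peak on every chromosome. The highest untagged window of each of the 16 chromosomes stood at 9.29 to 30.3 times the library's median, with a median of 17.2. The next highest window elsewhere on the same chromosome stood at 1.72 to 3.47. All 21 windows at 4-fold or more were among these 16 maxima and the window to either side of them, as were 23 of the 116 windows at 2-fold or more. Each maximum lay within 9 kb, at a median of 4 kb, of the centre of that chromosome's densest cohesin domain, taken as the highest running mean over 21 windows in the Pk-tagged IP without a break. That IP holds the same spikes, so part of this closeness follows from how the centres were found. With the maxima and their neighbours left out of the running mean, a step added after the data were seen, 15 of the 16 maxima lay within 15 kb of the centre, at a median of 4 kb, and on chromosome 3 the centre moved to 190 kb from the maximum. Those domains stand in here for pericentromeres, since no centromere could be placed. The maxima were singled out after their values were seen, so they are described without a test.

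The maxima were at chr13:268001-269000 (30.3 times the untagged median), chr4:449001-450000 (30.05), chr1:152001-153000 (22.6), chr3:114001-115000 (20.03), chr16:862001-863000 (18.9), chr14:643001-644000 (18.1), chr7:493001-494000 (18.0) and chr15:326001-327000 (17.5). The lower 8 were at chr10:443001-444000 (16.9), chr8:100001-101000 (16.9), chr2:240001-241000 (16.5), chr5:152001-153000 (16.4), chr11:448001-449000 (14.9), chr12:159001-160000 (14.0), chr6:155001-156000 (12.9) and chr9:346001-347000 (9.29). With IP alone the same 16 windows ran from 7.45 to 26.1 times the median, so division by extract did not make them. The extract at the maxima was close to its own median in HA-tagged replicate 1 (0.716 to 1.23, median 0.90) and in untagged cells (0.787 to 1.09, median 0.88). In HA-tagged replicate 2 it was lower (0.256 to 1.15, median 0.66).

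HA-tagged cells were high in the same windows, and by a similar factor relative to their own medians. At the 16 maxima HA-tagged replicate 1 stood at 8.23 to 22.5 times its median (middle value 13.5), replicate 2 at 6.48 to 60.1 (middle value 15.2), and the untagged library at 9.29 to 30.3 (middle value 17.2). The 3 ranges overlapped. In calibrated units the groups did not overlap: the maxima held 128 to 351 units in HA-tagged replicate 1, 116 to 1074 units in replicate 2 and 18.5 to 60.4 units in untagged cells. The untagged share at a maximum was 5.11% on chromosome 12 and 27.5% on chromosome 10, with a median of 13.8%. With IP alone it was 8.64% to 32.1%, median 16.8%. For the chromosome 13 maximum the values were 351 and 1074 units in HA-tagged cells and 60.4 units in untagged cells. The extract of replicate 2 was at 0.27 of its median there. With IP alone the HA-tagged values were 312 and 291 units and the untagged value 49.5 units. For the chromosome 10 maximum the values over extract were 128 and 116 units in HA-tagged cells and 33.6 units in untagged cells. The height of the untagged maximum followed that of the HA-tagged one only loosely across the 16 chromosomes (Spearman's rho 0.297 and 0.441 over extract, 0.179 and 0.0824 with IP alone).

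**Figure D3:**
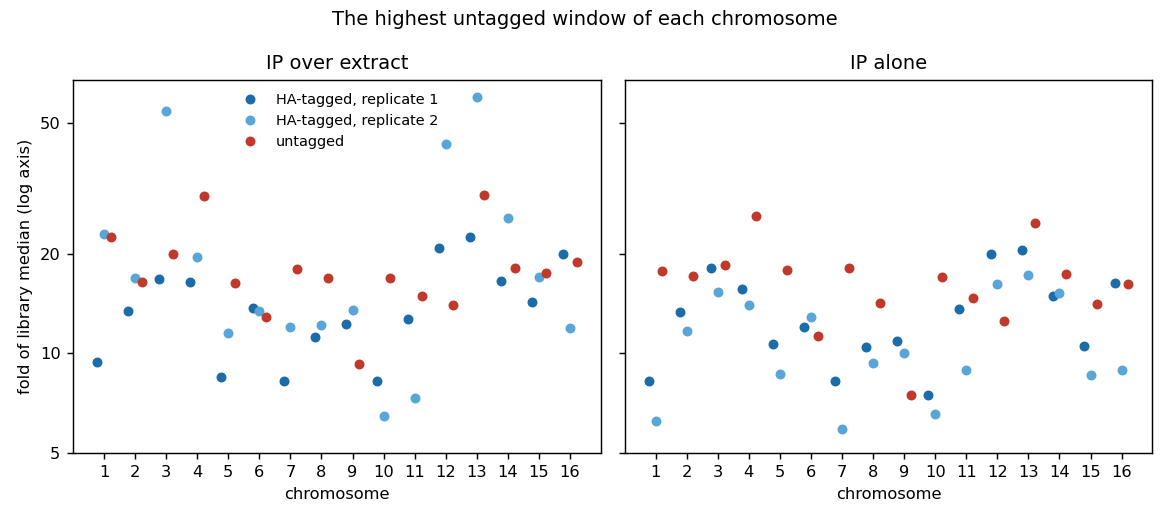
Signal of the HA-tagged replicates and the untagged library in the highest untagged window of each of the 16 chromosomes, as a fold of the library's own median (log axis), over extract (left) and for IP alone (right). All 3 libraries are at 5.90-fold or more on every chromosome, and the untagged points overlap the HA-tagged ones.

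What differed was the width. At 1 kb from the maximum the HA-tagged signal was at 6.67 and 8.76 times its median (middle of 16 chromosomes), and the untagged signal was at 1.46. Over single chromosomes these values ran from 3.67 to 11.8 and from 4.29 to 26.5 in HA-tagged cells and from 0.976 to 4.49 in untagged cells. The ranges at 1 kb thus overlapped, and some untagged peaks reached into a neighbouring window. At 2 to 5 kb the signal was at 4.48 and 5.47 in HA-tagged cells and 1.09 in untagged cells. At 6 to 10 kb the values were 3.64 and 4.16 in HA-tagged cells and 1.06 in untagged cells, at 21 to 30 kb 2.27 and 2.53 in HA-tagged cells and 1.08 in untagged cells, and at 31 to 40 kb 1.52 and 1.599 in HA-tagged cells and 0.97 in untagged cells. The untagged share was 13.8% in the maximum itself, 3.17% at 1 kb, 2.63% at 2 to 5 kb and 7.94% at 31 to 40 kb. The spike sat on the HA-tagged profile too. HA-tagged signal was at its highest within 3 kb on 14 chromosomes in replicate 1 and on 12 in replicate 2 at the very window of the untagged maximum, and on 12 and 7 with IP alone. Of the HA-tagged height above its own surroundings at 2 to 10 kb, the untagged height above its surroundings equalled 5.21% to 41.7%, with a median of 17.3%. These heights are over extract, so the uneven extract of replicate 2 enters them.

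**Figure D4:**
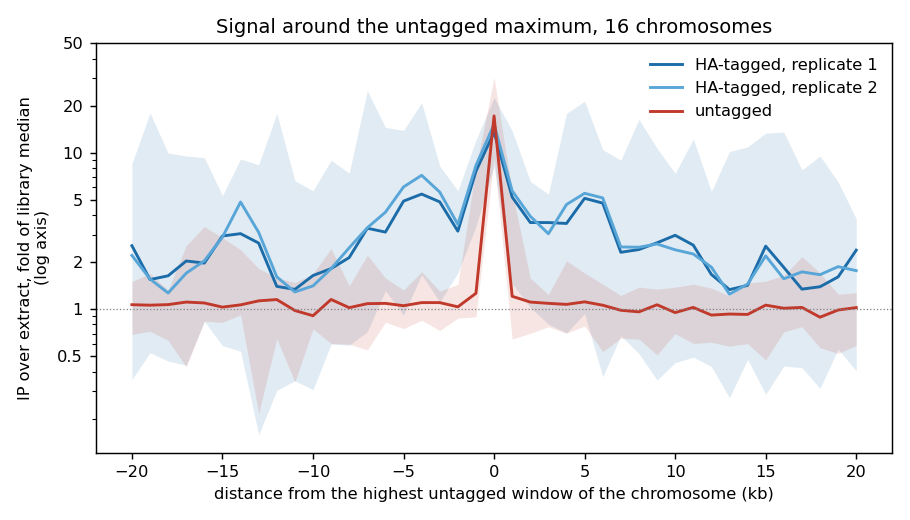
Signal over extract as a fold of the library's own median (log axis) against the distance in kb from the highest untagged window of the chromosome; lines are medians over 16 chromosomes, and shaded bands, drawn for HA-tagged replicate 1 and the untagged library, run from the lowest to the highest chromosome. The untagged line is a spike of 1 window at 17.2 that is near 1 on both sides, while on single chromosomes a neighbouring window reached up to 8.03. The HA-tagged lines have the same spike on a broad domain. At 2 to 10 kb they run between 1.64 and 5.45 in replicate 1 and between 1.41 and 7.18 in replicate 2.

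Over whole pericentromeric domains, 15 kb to each side of the Pk domain centre, the untagged signal stood clearly above its median only with its maxima included. The domains were placed where Pk-tagged Scc1 was densest. High HA-tagged signal and a low untagged share in them, here and in the counts by region and position below, thus follow in part from that choice. Averaged over the 16 domains (478 windows), HA-tagged signal was 66.3 and 79.5 units and untagged signal 3.23 units, a log2 difference of 4.49 ± 0.33 SE or 22.5-fold (limma, adjusted p = 1.81e-33, all 92 regions tested being higher in HA-tagged cells, 100%). This fit, like the others on calibrated levels, pooled the spread of all regions into 1 value; with each region's own spread the difference had an SE of 0.37 and an adjusted p = 0.000428 (limma). As folds of the library median these were 4.26 and 4.45 in HA-tagged cells and 1.62 in untagged cells. Without the maxima and their neighbours they were 3.72 and 3.92 in HA-tagged cells and 1.03 in untagged cells, and the untagged share went to 3.23%, against 4.43% with them. Over the single domains HA-tagged values ranged from 3.51 to 5.12 in replicate 1 and from 3.50 to 5.68 in replicate 2, and untagged values from 1.22 to 2.09, so the groups did not overlap. Without the maxima the untagged domains ranged from 0.946 to 1.21.

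Relative comparisons depend on how a library's level is set, because the HA-tagged mean window was 1.802 and 2.06 times the median window while in untagged cells it was 1.05 times. With the level set at the median window, 3881 windows (33.3%) were relatively higher and 3112 (26.7%) relatively lower in HA-tagged than in untagged cells (limma, adjusted p below 0.05). With the level set at the mean window, an alternative chosen after the data were seen, 1970 were relatively higher and 6898 relatively lower. The choice moves every log2 difference down by 0.87. For regions the mean window was used in what follows: 29 of 92 regions (31.5%) were higher and 8 (8.7%) were lower in HA-tagged cells, while with the median window 90 were higher and 0 lower. Higher by the mean were 14 of 16 pericentromeric domains, 10 of 13 distance classes around the break, 3 of 30 chromosome ends and 0 of 31 arms. The domains of chromosomes 4 and 13, which hold the highest untagged maxima, were the 2 that did not pass. All pericentromeres together were higher by 0.55 ± 0.11 SE (log2, limma adjusted p = 0.00112). The 8 lower regions were all chromosome ends.

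Windows were also counted by position, with the level at the median window. Within pericentromeric domains 72.0% of 478 windows were relatively higher in HA-tagged cells and 5.02% relatively lower. Within 100 kb of the break 60.7% of 163 windows were relatively higher and 11.04% lower. At chromosome ends (outer 20 kb, 432 windows) 42.8% were relatively higher and 13.7% lower, and on the arms (10566 windows) 30.8% were relatively higher and 28.5% lower. The untagged share of the median window was 4.48% in pericentromeric domains, 6.06% around the break, 8.95% at chromosome ends and 12.5% on the arms. Of the 54 windows with a share of at least 50%, 53 were on arms and 1 was at a chromosome end.

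Around the break, the untagged IP went down with the extract, while the HA-tagged IP was below its median close to the cut and above it in the mean of each distance class from 5 to 30 kb. The break was placed at chr5:119001-120000, the centre of the 5 windows in which the extracts of cells with a break, relative to those without one, were lowest on average. Within 5 kb to its right, IP alone was at 0.78 and 0.89 times the library median in HA-tagged cells and at 0.28 in untagged cells. From 5 to 10 kb to its left, IP alone was at 2.46 and 2.53 times the library median in HA-tagged cells and at 0.43 in untagged cells, while the extract was at 0.33 and 0.27 in HA-tagged cells and 0.34 in untagged cells. From 5 to 10 kb to its right, IP alone was at 2.19 and 2.68 in HA-tagged cells and 0.63 in untagged cells, over extracts of 0.45 and 0.53 in HA-tagged cells and 0.43 in untagged cells. In both of these outer classes HA-tagged IP was above its median on depleted DNA, and untagged IP was below it.

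Over extract, the 5 to 10 kb class on the left held 113 and 156 units in HA-tagged cells and 2.54 units in untagged cells. The log2 difference was 5.71 ± 0.33 SE, or 52.4-fold, the largest of the 92 regions (limma, adjusted p = 3.58e-47). With the region's own spread the SE was 0.54 and the adjusted p = 0.000486 (limma). On the right the same class held 73.7 and 85.9 units in HA-tagged cells and 2.90 units in untagged cells, a 27.4-fold difference. As folds of the library median the left class was at 7.28 and 8.72 in HA-tagged cells and 1.27 in untagged cells, and the right class at 4.74 and 4.81 in HA-tagged cells and 1.46 in untagged cells. Both untagged values rest on an extract at 0.34 and 0.43 of its median. The untagged share was 1.89% on the left and 3.63% on the right. Over the 13 distance classes tested out to 100 kb it stayed between 1.89% and 6.90%. The class within 5 kb to the left of the break is not among them. Fewer than 3 of its windows passed the limits on the extract.

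At 10 to 20 kb on the left HA-tagged signal was at 5.21 and 5.94 times the library median and untagged signal at 1.14, and on the right HA-tagged signal was at 5.45 and 7.07 and untagged signal at 1.30. From 20 to 50 kb the untagged signal was close to its median in each distance class but 1. At 20 to 30 kb on the left HA-tagged signal was at 2.86 and 2.95 times the library median and untagged signal at 0.99, and on the right HA-tagged signal was at 4.77 and 5.15 and untagged signal at 0.93. At 30 to 50 kb on the right HA-tagged signal was at 4.18 and 4.38 and untagged signal at 1.81, and that class holds the chromosome 5 maximum at chr5:152001-153000. Without this maximum and its neighbours the class was at 3.97 and 4.21 in HA-tagged cells and at 1.05 in untagged cells. Over the whole flank of 5 to 50 kb HA-tagged signal was at 3.802 and 3.92 and untagged signal at 1.25, or 3.74 and 3.87 in HA-tagged cells and 1.05 in untagged cells without the maximum.

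**Figure D5:**
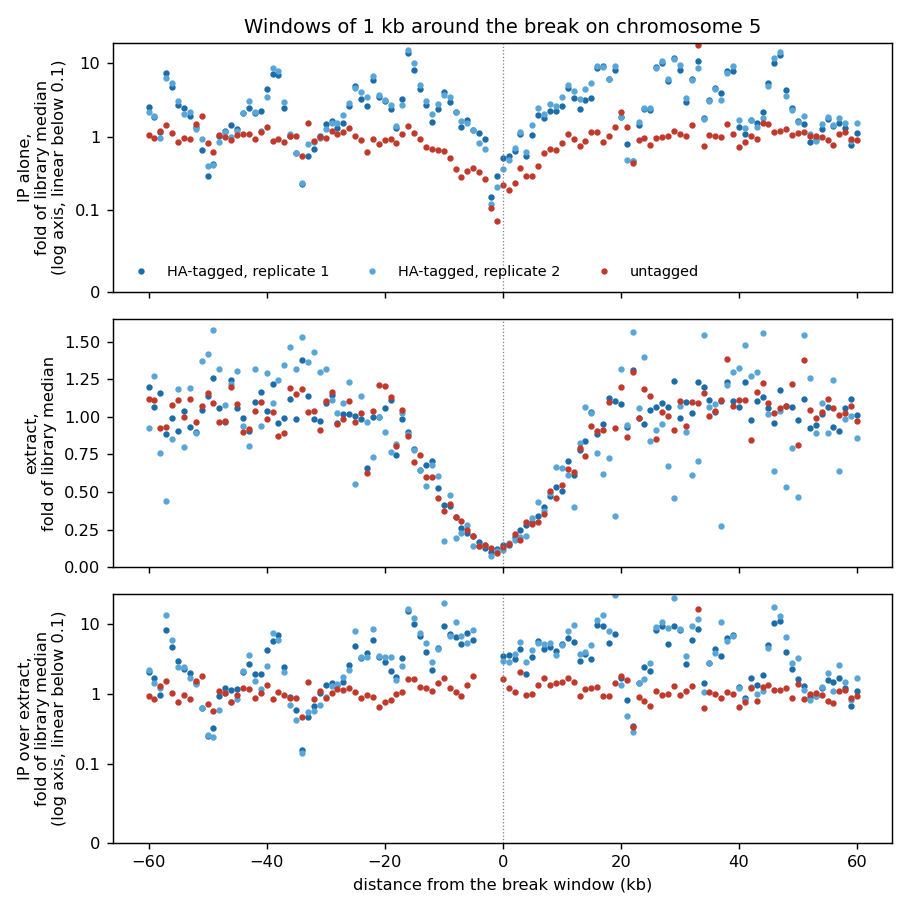
IP alone (top, log axis that is linear below 0.1), extract (middle, linear axis) and IP over extract (bottom, log axis that is linear below 0.1), each as a fold of the library's own median, in 1 kb windows within 60 kb of the break window on chromosome 5. All 3 extracts dip at the break; the untagged IP dips with them and over extract is mostly near 1, apart from 1 high window to the right, while the HA-tagged IPs are low close to the break and, over extract, stand well above the untagged library at 5 to 15 kb on both sides.

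Away from the 16 maxima, 93 windows were at 2-fold or more of the untagged median. They lay in 77 places, 69 of which were single windows, and their values were modest: 2.00 to 3.47, with a median of 2.21. The threshold fell within a continuum, with 46 windows at 2.0 to 2.2 and 81 windows at 1.8 to 2.0. Of the 93, 89 were on arms, 14 were on chromosome 12 and 0 were on chromosome 3. Only 56 of the 93 were at 2-fold or more with IP alone as well.

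In the median these windows were not high in HA-tagged cells. Their median was 0.93 and 0.80 of the library median in HA-tagged replicates 1 and 2 and 2.21 in untagged cells. Of the 93, 64 (68.8%) were relatively lower and 18 (19.4%) relatively higher in HA-tagged than in untagged cells (limma, level at the median window), and of the windows that were neither maxima nor among the 93, 26.5% were lower and 33.3% higher. Being picked for a high value in the untagged library, they had to lean to the lower side. The other 11 IPs, which did not choose them, were at 0.66 (Pk-tagged with break) to 1.33 times their own medians there (rad17 pds5-AID, replicate 1). At 2-fold or more in the HA-tagged replicates themselves were 28 (30.1%) and 23 (24.7%) of the 93, and 24.7% and 26.9% of the windows that were neither maxima nor among the 93. The untagged share was 30.4% in the median of these windows (1.09% to 75.9%), against 11.7% in the windows that were neither maxima nor among the 93.

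The highest of these places was chr12:620001-623000. Its top window was at 0.74 and 0.49 of the median in HA-tagged cells and at 3.47 in untagged cells. Next came chr7:476001-480000, with a top window at 0.84 and 0.54 in HA-tagged cells and 3.38 in untagged cells, and chr1:73001-74000, at 0.93 and 0.62 in HA-tagged cells and 3.29 in untagged cells. Both show untagged signal without a matching HA-tagged peak. Then followed chr12:248001-249000 (2.997 in untagged cells), chr14:414001-417000 (2.99), chr10:122001-123000 (2.99), chr8:35001-36000 (2.88), chr2:269001-275000 (2.86), chr16:416001-420000 (2.56) and chr15:445001-446000 (2.53). Of these 10 places, chr10:122001-123000 alone was high in HA-tagged cells, at 5.95 and 4.74 times the median.

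The places where the tagged pattern fell furthest short of the untagged one overlapped these in part. Both lists use the same untagged library, so some overlap is built in. The leading relative deficits, with the level at the median window, were chr12:614001-623000 (log2 difference -2.60 ± 0.27 SE at its strongest window), chr14:413001-417000 (-2.54 ± 0.24), chr2:269001-276000 (-2.36 ± 0.23) and chr15:439001-449000 (-2.30 ± 0.25). These 4 overlap 4 of the 10 places above, and chr7:476001-482000 (-2.26 ± 0.26), the seventh, also overlaps one of them. The remaining places were chr14:496001-506000, chr2:464001-471000, chr12:821001-828000, chr15:159001-164000 and chr12:786001-799000, with differences of -2.27 to -2.23. At the strongest windows of the 10 places HA-tagged signal was 0.26 to 0.69 of the median in replicate 1 and 0.21 to 0.48 in replicate 2, and untagged signal was 1.27 to 3.16.

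Expressed as a share, which restates the same values as a ratio, untagged signal came to 75.9% at chr12:620001-621000, 74.3% at chr14:415001-416000, 70.2% at chr14:414001-415000, 68.5% at chr12:621001-622000, 65.9% at chr2:272001-273000 and 65.1% at chr12:619001-620000. The single window above them, chr14:521001-522000 with 97.5%, had a thin extract, at 0.41 and 0.47 of the median in HA-tagged cells and 0.35 in untagged cells. Its signal was 1.16 and 1.75 units in HA-tagged cells and 1.42 units in untagged cells, low in all 3 libraries.

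The leading relative excesses were regions of high HA-tagged signal over flat untagged signal. At the strongest window of chr7:484001-507000 HA-tagged signal was 24.9 and 19.4 times the median and untagged signal 1.21 (relative log2 difference 4.13 ± 0.27 SE, limma adjusted p = 4.65e-07). At that of chr1:145001-162000 it was 21.4 and 28.1 in HA-tagged cells and 1.51 in untagged cells (3.97 ± 0.24 SE). Of the 10 leading places 5 (on chromosomes 6, 7, 1, 3 and 13) had their strongest window within 12 kb of that chromosome's untagged maximum. The other five were at chr5:307001-310000, chr4:25001-28000, chr13:104001-109000, chr12:479001-484000 and chr4:1382001-1386000. All 10 places were picked for the largest differences between these same libraries, so a small untagged share there follows from the choice. Untagged signal at all 10 strongest windows was 0.90 to 1.51 times its median, and the untagged share was 0.47% to 0.80%. At 4 of them the extract of HA-tagged replicate 2 was at 0.22 to 0.25 of its median, and replicate 2 exceeded replicate 1 there (39.6 against 10.8 on chromosome 6). The part of this extract in those differences was not tested.

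Taking the untagged value away from the HA-tagged one, window by window, made the HA-tagged pattern somewhat steeper. Subtracting a nearly flat signal raises such ratios by construction, so the values below give only the size of the shift. The ratio of the 95th to the 5th percentile went to 24.7 after subtraction, against 17.3 before, in HA-tagged replicate 1, and to 37.0, against 25.05, in replicate 2. Pericentromeric domains stood at 5.02 and 6.43 times the arm median after subtraction, against 4.54 and 5.84 before. The class 5 to 10 kb left of the break stood at 8.46 and 11.7 after subtraction, against 7.44 and 10.4 before. The 16 maxima stood at 14.2 and 16.5 after subtraction, against 14.2 and 16.01 before. After subtraction 1 window in replicate 1 (chr14:521001-522000) and 0 in replicate 2 were at or below 0.

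By chromosome the untagged median was even, from 0.97 of the library median on chromosome 9 to 1.02 on chromosome 12, while HA-tagged medians ran from 0.939 to 1.23 in replicate 1 and from 0.896 to 1.42 in replicate 2, both highest on chromosome 1. The median untagged share ran from 8.69% on chromosome 3 to 12.7% on chromosome 4.

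The same 16 windows were also high in the other IPs of the series. In all 10 other IPs from cells in nocodazole, anti-HA and anti-Pk, every one of the 16 was above 4 times the library's median, with middle values of 10.998 (Pk-tagged, with break) to 32.1 (Pk-tagged, without break). In the Pk-tagged IP without nocodazole 8 of 16 were, with a middle value of 4.01. That library had a coverage of about 2.29 in the median window. No untagged IP with the Pk antibody was used here, so what that antibody recovers there without its target was not measured. The mutant anti-HA groups had a lower Scc1 level, and the same untagged signal was a larger share of it. It was 17.7% of the median window in pds5-AID cells (n = 2), 17.02% in rad17 cells (n = 2) and 29.3% in rad17 pds5-AID cells (n = 2). In wild-type cells without a break (n = 1) it was 13.0%, against 11.8% in the HA-tagged wild type with a break. Windows with a share of at least 50% numbered 125, 114, 1458 and 425 in those 4 groups, against 54. The uncut library was not lower throughout. Its median window had 15.3 units, against 15.6 and 17.9 with a break, and its mean window 41.4 units, against 28.1 and 36.8. Its extract was more uneven, with an SD of log2 coverage of 0.802, against 0.247 and 0.495. The part of this extract in its shares was not tested. The untagged cells were wild type with a break, so for the mutants and the uncut strain no matched untagged library enters these shares.

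Finally, extract coverage differed between HA-tagged and untagged libraries in a few windows. Whether the DNA of the strains differs there was not tested, and the extract of HA-tagged replicate 2 was uneven, as given above. The window chr13:602001-603000 had an extract of 0 in both HA-tagged replicates, against 0.885 of the median in untagged cells and 0.829 to 1.4996 in the other 11 extracts. IP was 0 there in both HA-tagged libraries and 1.54 units in untagged cells. By more than 1.5-fold in both HA-tagged replicates, 6 kept windows differed from the untagged extract, all on the low side. The lowest was chr3:12001-13000, at 0.0375 and 0.0379 times the untagged extract, next to chr3:13001-14000 at 0.398 and 0.0778. The window chr13:601001-602000, beside the empty one, was at 0.109 and 0.178. The other three were chr3:186001-187000, chr4:5001-6000 and chr6:150001-151000, at 0.441 to 0.643. The empty window was left out of all comparisons, since a ratio over an extract of 0 is not defined.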

How the data were processed

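The deposited files give, per sample, a signal in 1 kb windows (12447 windows on 16 chromosomes). Per the submitters' processing notes, Bowtie2, SAMtools, bedtools and MACS2 were used, with no roles or versions, and per the series design the IPs were calibrated with Candida glabrata as described by Hu et al. The IP signal the authors deposited was used as given. In the extracts the smallest value above 0 was 1, so they are unscaled coverage. Window values were mostly not multiples of 1/1000, so they are not means over all 1000 bases. The depths given are approximate coverage, not counts of reads. Which genome build they used was not given in the sources used here.

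From these values each extract was set relative to its own median over all windows, and each IP was divided by its relative extract. Kept windows had a relative extract that averaged 0.25 to 4 over the 10 anti-HA libraries. A window with an extract of 0 in a library was left out, a step added after the data were seen. Per window, 5% of the library median was added to both terms before log2. The log2 difference of a low window is therefore pulled toward the difference between library levels. Relative differences are understated there, and calibrated differences can be overstated. Per region, log2 of mean IP over mean relative extract was used, without a pseudocount.

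Tests were run with limma 3.58.1 in R 4.3.3 on the 10 anti-HA IPs with 6 group means, Benjamini-Hochberg adjusted over all windows or all 92 regions, with a threshold of 0.05. The window fit on calibrated levels was also run on simulated windows with independent noise. Shifts shared by a whole library were no part of that simulation, so it does not test the p-values against them. The spread came from the 4 replicated groups with a break: HA-tagged wild type, rad17, pds5-AID and rad17 pds5-AID. Joined places bridge gaps of at most 2 windows. Places named are the 10 highest untagged places away from the maxima, the 10 largest relative excesses and deficits, the highest shares, and the regions by name; the 16 maxima were added after their values were seen. The groups, lists and rules were chosen with earlier results of these data known. Alternatives were IP alone, a larger pseudocount, no filter, each replicate left out, a replicate block, only 3 libraries, each region's own spread, the mean window as level, regions without the maxima, and domain centres found without them.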

Additional observations from a re-analysis of the deposited data

How the results depend on the processing

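The untagged library had the lowest depth of the 3 IPs compared, a coverage of 36.7 in its median window. With 1 untagged library there is no measure of its own spread. Of the main results, the level difference was 3.94 with the mean window as level, against 3.07. Relative to the mean window 1970 windows were higher and 6898 lower in HA-tagged cells, and 29 regions higher and 8 lower, against 3881, 3112, 90 and 0 relative to the median window; the median is the smaller level in a skewed library, so the direction of this shift follows from its construction. Among named results, 2 changed sign under it: the class 30 to 50 kb left of the break at -0.078 (limma adjusted p = 0.651) and the window chr10:122001-123000 at -0.039 (limma adjusted p = 0.894). The other main results stayed on their side of the threshold, or within 1.5 times for counts, under the alternatives run for each. Leaving out 1 library gave a level difference of 2.97 to 3.16, a median share of 11.04% to 12.8%, 11614 to 11637 calibrated higher windows, 3756 to 4058 relatively higher and 2892 to 3456 relatively lower windows, and 88 to 90 relatively higher regions. With only the 3 libraries compared, 3286 windows were relatively higher, 84.6% of the main calls being shared, and 2127 relatively lower, 68.1% being shared. Windows at 2-fold in the untagged library numbered 107 with IP alone and 152 with no filter. Same-numbered libraries of the 4 replicated groups had deviations correlated at 0.0843 to 0.339, so the numbers are not taken to pair the libraries. With the replicate block 4034 windows were relatively higher and 3339 relatively lower, all main calls being among them, and 91 regions were relatively higher.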

Other observations

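Windows outside the extract limits were left out of the comparison. The 4 windows with a mean relative extract over 4 were all on chromosome 12. Their IP over extract was at 1.02 and 0.98 of the library median in HA-tagged cells and at 0.94 in untagged cells, and they held 0.173% and 0.234% of the summed IP in HA-tagged cells and 0.261% in untagged cells. Among the 801 windows with a mean relative extract under 0.25, 536 had an untagged IP of 0.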
